A study of Ovis aries with 8 samples.

Results

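The genes described here make, sense, take up and store cholesterol: enzymes of the mevalonate and sterol pathway, the SREBP transcription factors with the proteins that hold or release them, and the proteins that import, move and esterify cholesterol. They were chosen by name, as rows of the deposited gene table whose symbol equals a listed member. Of 33 listed genes, 30 had such a row among 27057 rows. FDPS, SC5D and MYLIP were not matched and were not analysed here. The RNA came from fetal sheep hepatocytes (liver parenchymal cells) in culture, 4 libraries labelled basal and 4 treated with metformin, a biguanide drug against diabetes, for 24 h. The labels number 4 cell preparations, each with 1 library of either kind, and give polyadenylated RNA. Dose, vehicle, breed, fetal age, and whether a preparation came from 1 animal or several are not stated in the labels. P-values of the paired fit therefore weigh the mean change against variation among these 4 preparations. That variation was moderated: each gene's own spread was combined with the spread of other genes. A change that was even over the 4 preparations can thus still fail to pass.

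Cholesterol is built from acetyl-CoA through mevalonate, isoprenoid diphosphates, squalene and lanosterol. When the endoplasmic reticulum holds little sterol, the escort protein SCAP carries the SREBP factors to the Golgi, where proteases release the part that switches on synthesis and uptake genes. When sterol is plentiful, the INSIG proteins hold SCAP back, and surplus cholesterol is esterified by the SOAT enzymes for storage or for loading into lipoproteins. The liver is a main site of both synthesis and lipoprotein uptake, and fetal tissues depend in good part on cholesterol they make themselves.

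Values are FPKM, fragment numbers scaled by transcript length and by the library's mapped total, so levels of different genes can be set side by side per length. All 30 members reached 1 FPKM in at least 4 of the 8 libraries and were tested, SOAT2 through its basal libraries alone. A log2 change is metformin minus basal on the log2(FPKM + 1) scale, with its standard error (SE), and a gene is said to have risen or fallen where limma's paired fit gave an adjusted p under 0.05. The summed FPKM of a library lay between 1024543 and 1257764, and 12733 to 13293 genes reached 1 FPKM. The number of fragments behind a value is unknown. From the steps between the lowest values, the libraries' depths relative to the basal library of preparation 1 were estimated at 0.798 to 1.09.

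The labelled cell type was visible in the libraries. Albumin (ALB) averaged 1775 ± 1305 FPKM without and 1280 ± 1070 with the drug (SD, n = 4 each), and SERPINA1, an abundant plasma protease inhibitor, 12768 ± 4006 and 10124 ± 4665. Of all 13141 genes tested 43.9% passed the test, 19.8% higher and 24.1% lower with metformin, which is the background for the counts that follow. Of 10 hepatocyte markers 7 (70%) fell and 0 rose. AHSG, counted among the falls, holds placeholder values and had a usable pair only in preparations 3 and 4. Without AHSG the summed FPKM of the hepatocyte markers spanned 13457 to 27556 without the drug and 8036 to 22950 with it. Markers of other liver cells were present as well. Of 8 stellate cell and fibroblast markers 6 (75%) fell and 0 rose (summed FPKM 1678 to 3413 basal, 722 to 1959 metformin), and of 7 tested endothelial markers 4 (57.1%) fell and 0 rose (86.2 to 323.6 and 64.9 to 264.2). Of 8 macrophage markers 1 rose and 3 fell (922 to 1927 and 1143 to 1956), of 4 tested cholangiocyte markers 1 rose and 1 fell (1390 to 8735 and 1257 to 4238), and of 5 erythroid markers none passed the test (1.27 to 67.9 and 2.75 to 53.8). In such mixed RNA fewer cells of a type and less RNA per cell cannot be told apart.

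Metformin did not move the cholesterol genes in a single direction. Of the 30 members 6 rose (SOAT1, INSIG1, NPC1, CYP51A1, GGPS1 and INSIG2) and 5 fell (SOAT2, MVK, EBP, TM7SF2 and LRP1). That is 36.7% of the members called, against 43.9% of all genes tested. The median log2 change of the members was 0.06, and that of all genes was -0.04. The basal and metformin libraries did not overlap for 5 members (SOAT1, SOAT2, NPC1, GGPS1 and INSIG2), or 16.7%, against 25.9% of all genes tested. By role, 2 of 17 synthesis genes rose and 3 fell (median log2 change -0.07), 2 of 5 SREBP control genes rose and 0 fell (0.32), and of 8 genes of uptake, transport and esterification 2 rose and 2 fell (0.12). Without the preparation as a block, 3 members rose (GGPS1, NPC1 and SOAT1) and 1 fell (SOAT2).

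**Figure D1:**
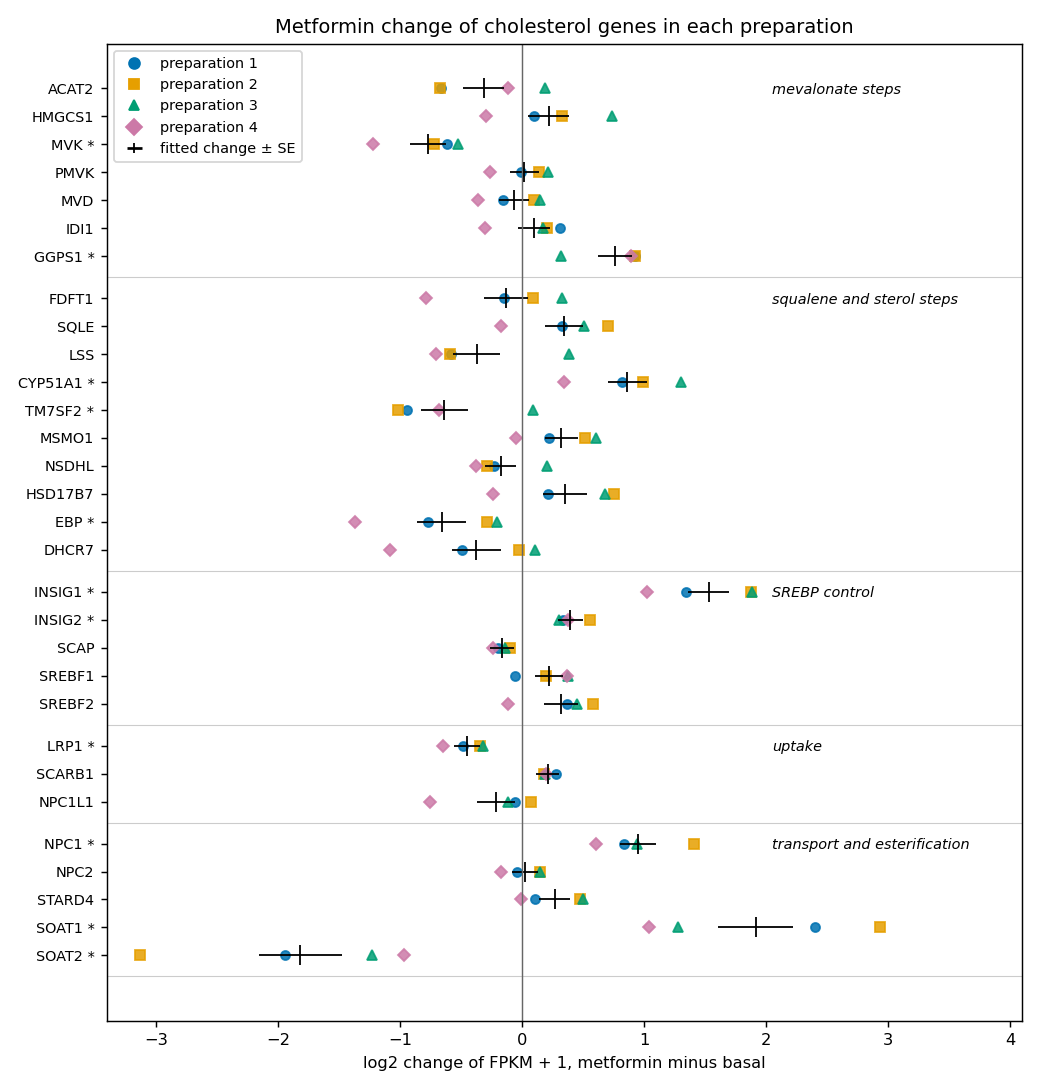
Log2 change of FPKM + 1, metformin minus basal (x axis), for the 30 members by role (y axis); coloured symbols are the 4 preparations, the black tick and bar are limma's fitted change and its SE, and * marks an adjusted p under 0.05. The SOAT genes lie farthest from 0 on opposite sides, at 1.91 and -1.82, and for most synthesis genes preparation 4 lies to the left of the other preparations.

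The largest rise and the largest fall among the members were those of the 2 enzymes that esterify cholesterol. SOAT1 (ENSOARG00000016678) makes cholesteryl esters in most tissues, and is known from human and mouse as the main form in macrophages. SOAT2 (ENSOARG00000016688) is known from the same species as the form of hepatocytes and enterocytes. In the basal libraries of preparations 1 to 4, SOAT1 stood at 33.7, 15.9, 42.3 and 29.5 FPKM, and in the metformin libraries at 182, 128, 104 and 61.8. Every metformin library lay above every basal library, and the rise was 5.40-, 8.04-, 2.46- and 2.09-fold in preparations 1 to 4. The log2 change was 1.91 ± 0.31 (SE, adjusted p = 0.0039), which ranked 90 among the rises of all genes tested.

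SOAT2 stood at 3.76, 15.1, 3.05 and 1.17 FPKM in the basal libraries and at 0.240, 0.837, 0.726 and 0.110 in the metformin libraries. The groups did not overlap, and preparation 2, highest without the drug, was also highest with it. The metformin level was 0.0640, 0.0554, 0.238 and 0.0941 of the basal level in preparations 1 to 4, and the log2 change was -1.82 ± 0.34 (SE, adjusted p = 0.0064). SOAT2 passed the filter on low values only through the basal group, where it is high, so that p is conditioned on this group; in limma's fit to all genes with no such filter the adjusted p was 0.0335. The pseudocount of 1 FPKM shrinks this change because all metformin values are below 1; with a pseudocount of 0.1 FPKM it was -3.01. These were the lowest values of any member, where counting error is largest relative to the value, and all 4 preparations moved the same way.

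Because both genes are scaled by length, their ratio can be read within a library. SOAT1 exceeded SOAT2 8.96-, 1.05-, 13.9- and 25.3-fold in the basal libraries of preparations 1 to 4. With metformin the ratio was 757, 153, 143 and 563. Preparation 2, where both forms were nearly equal without the drug, showed the largest shift. That the ratio was higher in 4 of 4 preparations follows from the rise of SOAT1 and the fall of SOAT2 in each, and is no further result. The metformin ratios are imprecise, since they divide by SOAT2 values of 0.110 to 0.837 FPKM, and SOAT2 passed the filter only through its basal libraries. Both genes summed to 30.7 to 45.4 FPKM without the drug and to 61.9 to 182 FPKM with it. An exact permutation test of a single ratio over 4 pairs cannot give a 2-sided p below 0.125, so none was run.

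Cell type markers changed as well, as did 43.9% of all genes tested. The hepatocyte markers named next had the steepest falls of the 10 listed, whereas ALB (log2 change -0.46), SERPINA1 (-0.39) and FGB (-0.51) did not pass. HNF4A, a transcription factor of hepatocyte identity, averaged 55 ± 21.5 FPKM basal and 11.7 ± 3.78 with metformin (log2 change -2.10, adjusted p = 0.000701), the urea cycle enzyme CPS1 127 ± 108 and 25.1 ± 26.8 (-2.52, adjusted p = 0.000848), and the hepatocyte receptor ASGR1 60.1 ± 17.3 and 23.7 ± 10.0 (-1.35). Among macrophage markers the lysosomal protein CD68 rose (log2 change 0.72, adjusted p = 0.0129), whereas CSF1R (-0.58), C1QB (-0.55) and CD163 (-0.41) fell. The part of either cell type in the SOAT changes was not tested.

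**Figure D2:**
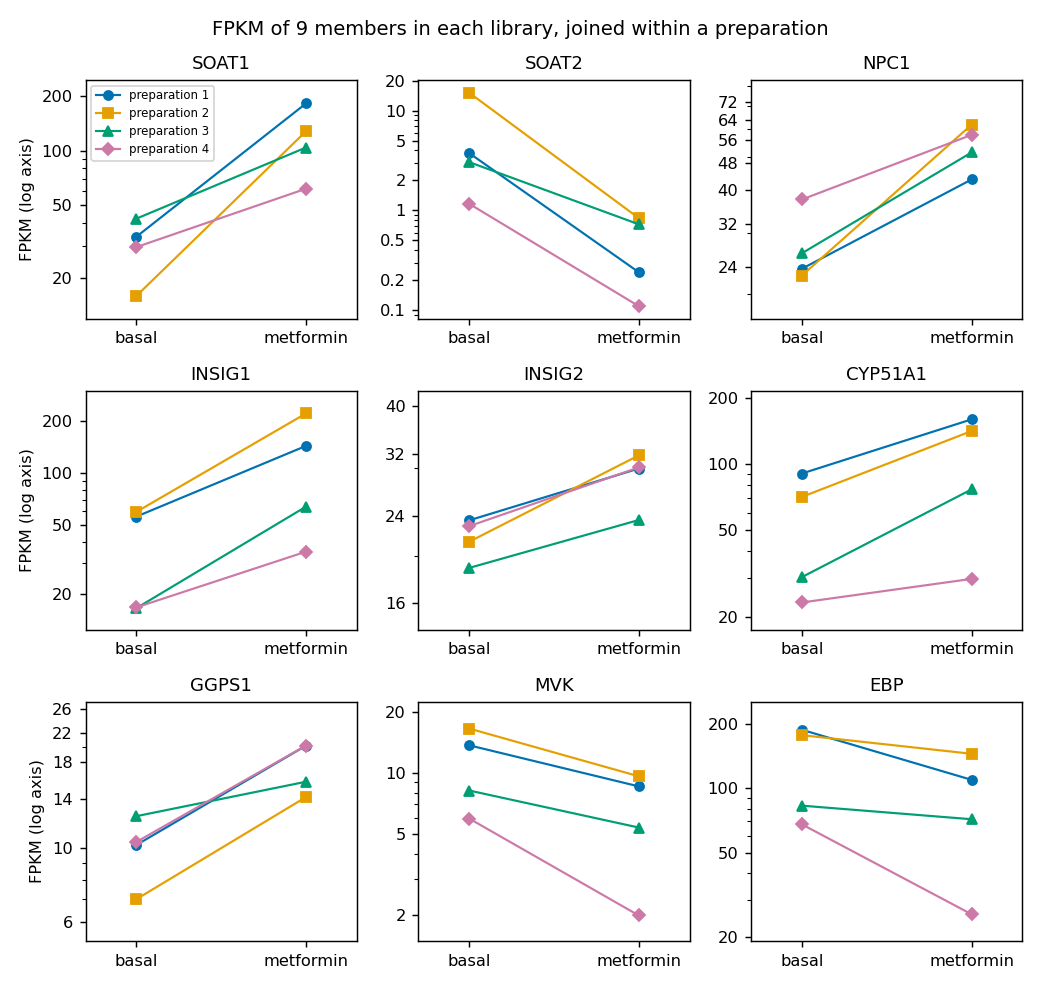
FPKM on log axes of 9 members in the basal and metformin library of each preparation, joined by a line per preparation. SOAT1, NPC1, INSIG1, INSIG2, CYP51A1 and GGPS1 rise and SOAT2, MVK and EBP fall in all 4 preparations.

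Of the genes that move cholesterol inside the cell, NPC1 rose and its partner NPC2 did not pass the test. Together they export cholesterol from lysosomes after lipoproteins have been digested: NPC2 is the soluble carrier in the lumen and NPC1 the membrane protein that takes the sterol over. NPC1 (ENSOARG00000007905) stood at 23.7, 22.7, 26.3 and 37.6 FPKM basal and at 43.0, 61.9, 51.5 and 57.9 with metformin. The groups did not overlap, and the log2 change was 0.95 ± 0.15 (SE, adjusted p = 0.0034). NPC2 was the most abundant member, at 280.4 ± 38.3 FPKM basal and 284.2 ± 38.9 with metformin (log2 change 0.02, 95% interval -0.23 to 0.27, adjusted p = 0.886). The NPC1 to NPC2 ratio was 0.0794 to 0.127 without the drug and 0.148 to 0.250 with it, higher in 4 of 4 preparations. STARD4, a soluble sterol carrier, had a log2 change of 0.27 (interval -0.04 to 0.57, adjusted p = 0.129), and was higher with metformin in preparations 1 to 3.

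At the cell surface 1 of 3 members fell (33.3% called, against 43.9% of all genes tested). LRP1, a large endocytic receptor that clears lipoprotein remnants, stood at 104, 123, 182 and 161 FPKM basal and at 74.2, 96.6, 145 and 102 with metformin. Each preparation was lower with the drug although the groups overlapped (log2 change -0.45 ± 0.11 SE, adjusted p = 0.0147). LRP1 is abundant in fibroblasts and macrophages too, and the 8 stellate cell and fibroblast markers were lower with metformin in all 4 preparations; the part of these cells was not tested. Its adjusted p was 0.0676 without preparation 1, 0.0578 without preparation 4 and 0.223 without the block. SCARB1, the receptor for high-density lipoproteins, was higher in 4 of 4 preparations by a small and even margin, 1.13- to 1.22-fold, which did not pass across all genes (0.21, interval -0.02 to 0.44, adjusted p = 0.113). NPC1L1, a sterol importer of enterocytes and, in human, of hepatocytes, was detected at 9.92 ± 1.72 FPKM basal and 8.47 ± 1.93 with metformin (-0.21, interval -0.59 to 0.16, adjusted p = 0.302).

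In the SREBP control machinery both INSIG genes rose, and the factors themselves did not pass the test. INSIG1, itself a well-known target of SREBP, stood at 55.9, 59.5, 16.5 and 16.7 FPKM in the basal libraries of preparations 1 to 4 and at 143, 221, 63.8 and 35.1 in the metformin libraries. Preparations 3 and 4 started from about the same level and ended apart, with folds of 3.86 and 2.10; preparations 1 and 2 had folds of 2.56 and 3.71. The paired log2 change was 1.53 ± 0.17 (SE, adjusted p = 0.0013), rank 202 among the rises of all genes. The groups overlapped because the preparations differed at baseline, and without the block the adjusted p was 0.130.

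INSIG2, a second SCAP anchor that SREBP is not known to switch on, varied little between preparations. It stood at 23.6, 21.3, 18.9 and 22.9 FPKM basal and at 30.0, 31.9, 23.6 and 30.1 with metformin. The groups did not overlap, though the lowest metformin and the highest basal library were almost level, and the change was 0.39 ± 0.10 (SE, adjusted p = 0.0211). That call ended without preparation 1, 2 or 4 (adjusted p of 0.0736, 0.0683 and 0.0600) and without the block (0.0775). The INSIG1 to INSIG2 ratio was 0.729 to 2.79 without metformin and 1.16 to 6.92 with it, and it was higher with metformin in 4 of 4 preparations.

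SREBF2, which encodes the SREBP that chiefly drives cholesterol synthesis, was the second most abundant member. It stood at 229, 207, 143 and 151 FPKM basal and at 296, 310, 195 and 140 with metformin (0.32 ± 0.14 SE, interval -0.0021 to 0.64, adjusted p = 0.0951). Preparations 1 to 3 were higher with the drug and preparation 4 was not. Leaving out 1 preparation gave adjusted p from 0.0365, without the opposed preparation 4, to 0.245. SREBF1, which chiefly serves fatty acid synthesis, was lower than SREBF2 in every library, by 5.44- to 12.7-fold, and had a change of 0.22 (interval -0.06 to 0.50, adjusted p = 0.164). The escort SCAP was lower in 4 of 4 preparations, at 0.846 to 0.932 of its basal level, and did not pass (-0.17, interval -0.40 to 0.06, adjusted p = 0.200).

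The 17 measured synthesis genes differed more between preparations than between basal and metformin libraries. Their summed FPKM was 1186, 1228, 569 and 497 in the basal libraries of preparations 1 to 4 and 1156, 1320, 736 and 380.0 in the metformin libraries. Among basal libraries the highest sum was 2.47 times the lowest, whereas the metformin to basal ratio within a preparation was 0.975, 1.07, 1.29 and 0.765. Of the 17 genes 8 were highest in preparation 1 and 8 in preparation 2 among basal libraries, and 13 were lowest in preparation 4. The median ratio of the highest to the lowest basal library was 2.45 for these genes, against 1.65 over 12999 tested genes that were above 0 in every basal library. Cell type markers differed between the basal libraries as well. In preparations 1 to 4 the hepatocyte markers without AHSG summed to 27556, 17829, 13457 and 15650 FPKM. The stellate cell and fibroblast markers summed to 2013, 1951, 3413 and 1678 FPKM. The part of cell make-up in the synthesis levels was not tested. Whether the preparations differed in animal, age, medium or plating is not given.

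**Figure D3:**
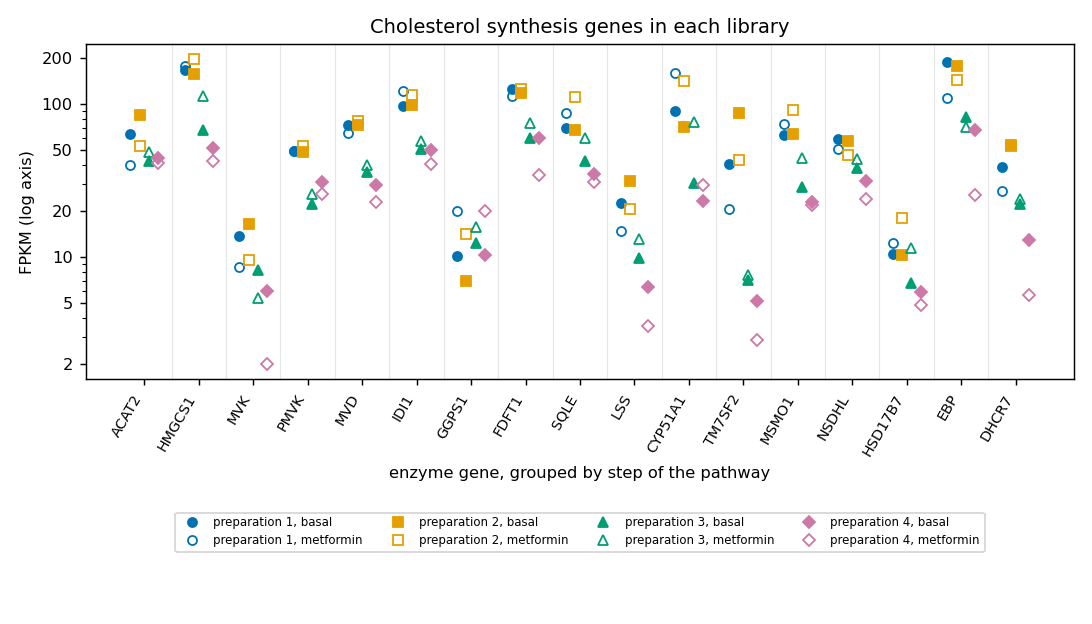
FPKM (log axis) of the 17 synthesis genes in each library, filled symbols basal and open symbols metformin, with 1 shape and colour per preparation. For 16 of 17 genes the highest basal value is that of preparation 1 or 2, and TM7SF2 spans the widest range, 5.19 to 87.9 FPKM basal.

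Preparations also differed in which way synthesis genes went with metformin. In preparation 3, 15 of 17 were higher with the drug, and in preparation 4, 2 of 17 were; preparations 1 and 2 had 7 and 10. For all genes tested the share higher with metformin was 44.9%, 54.0%, 49.7% and 41.5% in preparations 1 to 4, against 41.2%, 58.8%, 88.2% and 11.8% of the synthesis genes. The 2 genes higher in preparation 4 were CYP51A1 and GGPS1, which rose in the paired fit. With 1 pair per preparation the difference between preparations has no test.

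**Figure D4:**
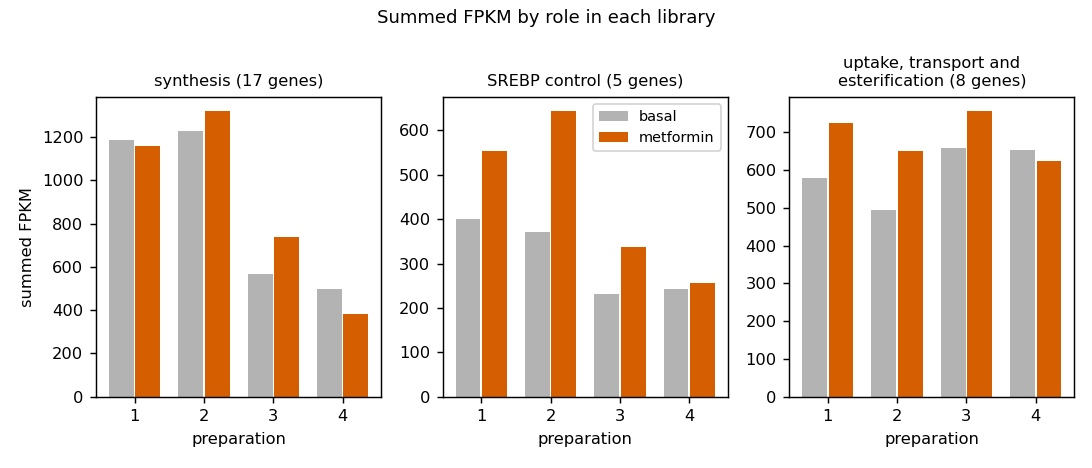
Summed FPKM (bars from 0) of the synthesis, SREBP control and uptake, transport and esterification genes in the basal and metformin library of each preparation. Synthesis sums follow the preparation more than the drug. SREBP control sums also differ between preparations, by up to 1.73 times among basal libraries. They are higher with metformin in all 4 preparations, by 1.06 to 1.74 times. In preparation 4 INSIG1, INSIG2 and SREBF1 are higher with metformin, and SREBF2 and SCAP are lower.

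Among the enzymes of the mevalonate steps 1 of 7 rose and 1 fell (28.6% called, below the 43.9% of all genes tested). GGPS1, which makes geranylgeranyl diphosphate for protein prenylation and so leads off the sterol route, stood at 10.2, 7.0, 12.4 and 10.4 FPKM basal and at 20.2, 14.2, 15.7 and 20.2 with metformin. The groups did not overlap, and the change was 0.77 ± 0.14 (SE, adjusted p = 0.0058). Unlike most of the pathway, GGPS1 was not high in preparations 1 and 2 at baseline, and its lowest basal value was in preparation 2. Mevalonate kinase, MVK, stood at 13.7, 16.5, 8.20 and 5.97 FPKM basal and at 8.59, 9.63, 5.39 and 1.99 with metformin. Each preparation fell to between 0.334 and 0.658 of its basal level (-0.77 ± 0.14 SE, adjusted p = 0.0065; 0.250 without the block).

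The other 5 mevalonate genes had log2 changes of -0.31 to 0.22 and did not pass. HMGCS1, the cytosolic HMG-CoA synthase, was the most abundant of them at 111 ± 59.5 FPKM basal and 133 ± 70.4 with metformin (0.22, interval -0.18 to 0.62, adjusted p = 0.322). The cytosolic thiolase ACAT2, which makes acetoacetyl-CoA and is unrelated to the SOAT enzymes once given the same name, was lower in 3 of 4 preparations (-0.31, interval -0.71 to 0.08, adjusted p = 0.165). PMVK, MVD and IDI1, the next enzymes towards isoprenoid diphosphates, had changes of 0.02, -0.07 and 0.10 with intervals that all lay between -0.36 and 0.40.

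Of 10 genes of the squalene and sterol steps 1 rose and 2 fell (30% called, below the 43.9% of all genes tested). CYP51A1, the cytochrome P450 that demethylates lanosterol, stood at 90.6, 70.8, 30.4 and 23.3 FPKM basal and at 160.2, 142, 76.6 and 29.9 with metformin. The rise ranged from 1.28-fold in preparation 4 to 2.52-fold in preparation 3, with a log2 change of 0.86 ± 0.16 (SE, adjusted p = 0.0065; 0.337 without the block). EBP, a sterol isomerase late in the pathway, stood at 188, 178, 83.0 and 67.8 FPKM basal and at 109.7, 145, 71.7 and 25.7 with metformin. All preparations fell, most in preparation 4 and least in preparation 3 (-0.66 ± 0.20 SE, adjusted p = 0.0333), and the adjusted p was 0.0971 without preparation 1, 0.0844 without preparation 4, 0.0864 with no filter on low values and 0.429 without the block.

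TM7SF2, a sterol reductase acting just after CYP51A1, stood at 40.7, 87.9, 7.09 and 5.19 FPKM basal and at 20.8, 42.9, 7.63 and 2.87 with metformin. It was lower in preparations 1, 2 and 4 and slightly higher in preparation 3 (-0.64 ± 0.19 SE, adjusted p = 0.0341). The call ended without preparation 1, 2 or 4 (adjusted p of 0.116, 0.126 and 0.0945) without the block (0.687), under quantile normalization (0.0745) and with no filter on low values (0.0906).

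The other 7 genes of these steps did not pass, with changes from -0.37 to 0.35. Squalene epoxidase SQLE (0.34, interval -0.03 to 0.71, adjusted p = 0.112), the methyl sterol oxidase MSMO1 (0.32, 0.0013 to 0.64, adjusted p = 0.0925) and the ketosteroid reductase HSD17B7 (0.35, -0.08 to 0.78, adjusted p = 0.151) were higher with metformin in preparations 1 to 3 and lower in preparation 4. Lanosterol synthase LSS was lower in preparations 1, 2 and 4 and higher in preparation 3 (-0.37, interval -0.83 to 0.09, adjusted p = 0.155), as was NSDHL, a dehydrogenase that removes methyl groups (-0.17, interval -0.47 to 0.13). DHCR7, which catalyses a final reduction to cholesterol, ranged from 0.432 of its basal level in preparation 4 to 1.08 times in preparation 3 (-0.37, interval -0.85 to 0.10, adjusted p = 0.166). Squalene synthase FDFT1 was also lowest relative to basal in preparation 4 and highest in preparation 3, at 0.571 and 1.26 times (-0.13, interval -0.57 to 0.30, adjusted p = 0.584).

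Genes that border on these routes were read from 7 further lists, each against the 43.9% of all genes tested that passed (19.8% higher, 24.1% lower). Of 8 genes that cleave SREBP or take part in sterol-regulated degradation 3 fell and 0 rose, or 37.5% called, below the share over all genes. They were MBTPS1, the first of the Golgi proteases that release SREBP, from 46.0 ± 3.90 to 26.0 ± 4.27 FPKM (log2 change -0.81 ± 0.11 SE, adjusted p = 0.0022), and the sterol-binding scaffold proteins ERLIN2 (-0.77, adjusted p = 0.0025) and ERLIN1 (-0.57, adjusted p = 0.0115). The groups did not overlap for any of the 3, or 37.5% of the list, against 25.9% of all genes tested. The second protease, MBTPS2, had a change of -0.16 (adjusted p = 0.392).

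Of 12 fatty acid synthesis targets of SREBP-1, 3 rose and 2 fell, or 41.7% called, close to the share over all genes. The acyltransferase GPAM (log2 change -1.52, adjusted p = 0.0017) and the elongase ELOVL6 (-0.72, adjusted p = 0.0048) fell, whereas ACLY, which makes cytosolic acetyl-CoA for both lipid routes, rose from 43.8 ± 7.99 to 68.5 ± 15.8 FPKM (0.62, adjusted p = 0.0158). Among 8 genes of the LXR receptors and sterol efflux 2 rose and 5 fell (87.5% called). ABCG5 and ABCG8, the partners in the transporter that secretes sterols into bile, both fell, with log2 changes of -1.03 and -1.24 (adjusted p of 0.0033 and 0.0034). ABCG8 went from 7.09 ± 2.26 to 2.37 ± 0.465 FPKM. ABCG5 went from 2.59 ± 1.15 to 0.708 ± 0.276 FPKM, low values at which the pseudocount of 1 FPKM shrinks its log2 change. APOA1, the main protein of high-density lipoprotein and also a hepatocyte marker, changed by -1.11 (adjusted p = 0.0016). ABCG1, which exports sterol in macrophages and was picked out after its values were seen, rose from 7.21 ± 2.65 to 16.9 ± 3.63 FPKM (1.17, adjusted p = 0.0096).

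In bile acid synthesis, where cholesterol is broken down, 3 of 6 tested genes fell and 0 rose, which at 50% called is close to the 43.9% over all genes. They were AKR1D1 (-2.70), AMACR (-0.58) and HSD3B7 (-0.46), with adjusted p of 0.00027, 0.0099 and 0.0325. CYP7A1, the first enzyme of the classical route, was too low to test: it was listed at 0 in 7 of 8 libraries and at 0.717 FPKM in the basal library of preparation 2. The isoprenoid branch had 3 of 9 rise and 2 fall (55.6% called, against 43.9% of all genes). RABGGTB, a subunit of the enzyme that attaches geranylgeranyl groups to Rab proteins, rose from 20.1 ± 5.43 to 53.1 ± 18.1 FPKM (1.34, adjusted p = 0.000701), while COQ2 (-1.22, adjusted p = 0.0017) and PDSS1 (-0.72, adjusted p = 0.0040), both of ubiquinone synthesis, fell.

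Sterol transport proteins had the same counts, 3 of 9 higher and 2 lower (55.6% called). GRAMD1A, which carries plasma membrane cholesterol to the endoplasmic reticulum, rose from 46.8 ± 12.4 to 76.3 ± 7.38 FPKM (0.73, adjusted p = 0.0051), and its relatives GRAMD1C (-1.26, adjusted p = 0.0011) and GRAMD1B (-0.90, adjusted p = 0.0054) fell. Of 4 other lipoprotein receptors (50% called) VLDLR rose (1.43, adjusted p = 0.0010) and STAB1, a scavenger receptor of endothelial cells and macrophages, fell (-0.61, adjusted p = 0.0206).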

How the data were processed

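The authors deposited 1 FPKM value per gene and library; the submitters' processing notes name Cufflinks and the build Oar_v3.1, and no aligner, annotation or version is stated in the labels. Values far above any other stood in 4 cells, none of a member, and were treated as missing. FPKM divides by each library's total, so a rise of abundant transcripts lowers others.

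The 13141 genes reaching 1 FPKM in 4 or more libraries entered limma 3.58.1 (R 4.3.3) as log2(FPKM + 1): preparation as a block, mean-variance trend, moderated variances (prior df 4), 2-sided, Benjamini-Hochberg over all genes, threshold 0.05. Deviations from the group means correlated within preparations (r 0.489 to 0.585 over 4 pairs). Members and lists were chosen with earlier results of these data known; all matched members are named, and of other lists up to 3 called genes with the lowest p. ABCG1, MBTPS2, CYP7A1 and the cell type markers named were picked outside that rule, after their values were seen. On simulated data of 13139 genes, with 200 changed in each of 10 sets, the fit recovered 31.5%, 91.6% and 98.9% of genes changed 1.5-, 2- and 4-fold. In the real data 43.9% of genes passed, and the adjusted p depends on that share, so recovery there may differ. No sequences were used.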

Additional observations from a re-analysis of the deposited data

Results flagged for a closer look

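In each group of 4 values (basal FPKM, metformin FPKM and the 4 paired log2 changes of each member, 90 groups) the most distant value was compared with the group's range; 3 stood apart by Dixon's 95% limit, and chance alone gives about 1 in 20. For GGPS1 the log2 change in preparation 3 was 0.32, against 0.90 to 0.92 in the other preparations. For LSS the change in preparation 3 was 0.38, against -0.70 to -0.58. Without preparation 3 the paired fit gave LSS a change of -0.62 (adjusted p = 0.0113). Preparation 3 was flagged here for standing apart from the others, so this p is no support for a fall. In the main fit LSS did not pass (adjusted p = 0.155), and leaving out 1 preparation gave up to 0.392. The basal library of preparation 2 held NPC2 at 223 FPKM, against 296 to 304 in the other basal libraries.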

How the results depend on the processing

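Over 11 alternatives, GGPS1, NPC1, SOAT1 and SOAT2 kept their calls (SOAT2 over 10, as it is not tested at a mean FPKM of at least 5); the other 7 called members lost theirs under at least 1. Without the replicate block 3 members and 1272 genes rose and 1 member and 1246 genes fell. Testing without a filter left 3 members lower, with EBP and TM7SF2 lost; TM7SF2 was also lost under quantile normalization. Leaving out 1 preparation gave 5 to 8 members higher, 2 to 6 lower, 1679 to 2307 genes higher and 1995 to 2923 lower; 2 members were lower without preparation 1 and without preparation 4. All-gene counts of rises without preparations 1 and 2 were 1679 and 1731, and of falls without preparation 1 1995. Calls gained were MSMO1 and SREBF2 under the median of ratios, HSD17B7 under quantile normalization, LSS without preparation 3, and SQLE, HSD17B7 and SREBF2 without preparation 4. Signs of uncalled changes flipped under quantile normalization for PMVK (-0.030), IDI1 (-0.0021) and NPC2 (-0.039), and on leaving out 1 preparation for PMVK (-0.044 to 0.11), NPC2 (-0.021 to 0.086), MVD (-0.14 to 0.029) and FDFT1 (-0.28 to 0.089). The causes were not tested. Depth in fragments is unknown and limits SOAT2 most.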
